A study of Mus musculus with 4 samples.

Results

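Cadherins are calcium-dependent adhesion proteins of the cell surface, and 8 of their genes are described here across an induced pluripotent stem (iPS) cell clone, mouse embryonic fibroblasts (MEFs) and embryonic stem (ES) cells. The members were all probes for genes, control spots left out, that the array files name Cdh1, Cdh2, Cdh3, Cdh4, Cdh6, Cdh10, Cdh11 or Cdh13. They are 21 probes of 41174, and 8 genes of 27745 names. RNA was measured on 4 Agilent arrays with 2 colours. The red dye carried iPS cells on 2 arrays and MEFs on 2 arrays, and the green dye carried the ES cell line CGR8.8 on all 4. The iPS cells were 1 clone taken 30 days after transduction, and the factors transduced are not given in the sources used here. The MEFs were passaged several times before harvest. The iPS and ES cells were grown with leukemia inhibitory factor at 1000 IU per ml. No mouse strain, genotype or age is given in the sources used here.

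Classical cadherins bind their like on neighbouring cells through extracellular repeats that hold calcium, and their cytoplasmic tails bind beta-catenin and p120-catenin. Cdh1 (E-cadherin) holds together epithelia, the early embryo and colonies of ES cells. Cdh2 (N-cadherin) and Cdh11 (OB-cadherin) are typical of mesenchymal cells, and a switch of Cdh1 for Cdh2 is a hallmark of the transition of epithelial to mesenchymal cells. Cdh1, Cdh2, Cdh3 and Cdh4 are cadherins of type I and Cdh6, Cdh10 and Cdh11 of type II. Cdh13 (T-cadherin) is the exception to the name classical: it is anchored to the membrane by a lipid and has no cytoplasmic tail.

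The labels were first set against marker genes, with each gene represented by its brightest probe. All 8 tested pluripotency markers were higher in iPS cells than in MEFs, and all 11 tested fibroblast markers were lower. Of all tested genes, 17% were higher and 18.8% lower in that comparison. Relative to ES cells, the iPS cells had 5 of the 8 pluripotency markers higher and 1 lower. The lower 1 was Pou5f1, which encodes Oct4, at a log2 ratio of -1.35. Of all tested genes, 9.08% were higher and 11.8% lower in iPS cells than in ES cells. In MEFs all 11 fibroblast markers were higher and all 8 pluripotency markers lower than in ES cells. Among 8 tested endothelial, 9 macrophage, 7 muscle and 8 neural crest or glial markers, 1, 4, 5 and 4 were higher in MEFs than in ES cells and 2, 1, 0 and 1 lower, where 13.8% of all tested genes were higher and 13.6% lower. The endothelial cadherin Cdh5 was not well above background in any of the RNAs. Signals well above background were found for 61.1% to 63.2% of gene probes in red and for 62.0% to 63.4% in green. The labels call the arrays of a group biological replicates but name no separate cultures. The p-values therefore cover only the spread among these samples, part of which may be technical.

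The 3 RNAs differed in the levels of several cadherins. The iPS cells had a high level of Cdh1, 22.1-fold above MEFs, and had the lowest levels of Cdh2, Cdh13 and the downstream Cdh11 probes. The MEFs had little Cdh1, high Cdh13 and high levels of the downstream Cdh11 probes, whereas the upstream Cdh11 probe was lowest in MEFs. The ES RNA held Cdh1 at the highest level together with Cdh2 at a level near that of MEFs. Changes are given as log2 ratios ± standard error from limma (n = 2 arrays of iPS cells and 2 of MEFs). A change was called where it reached 2-fold and its p, adjusted after Benjamini and Hochberg over all tested probes, was under 0.05.

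Of the 21 probes, 13 were tested, covering all 8 genes, and 5 were not well above background in any of the RNAs. A probe was tested only where at least 1 RNA gave a signal well above background, so their counts describe detected probes and not every member. Over ES cells, 0 of the 13 were called higher in iPS cells, 6 lower and 7 neither. The 6 lower probes belonged to 5 genes, and probes of the same gene are not independent. The background was 18.7% of all 24874 tested probes called, with 10.7% lower. The median of the members was -0.80 and that of all tested probes -0.01. In MEFs over ES cells 3 were higher, 2 lower and 8 not called, against a background of 25.2% (12.8% higher, 12.4% lower), and the medians were 0.18 for the members and -0.01 for all. In iPS cells over MEFs 1 was higher, 5 lower and 7 not called, against a background of 33.1% (15.4% higher, 17.7% lower), with medians of -0.81 and 0.01. By gene, 2 had a higher and 2 a lower probe in MEFs over ES cells, with Cdh11 in both counts. In iPS cells over MEFs 1 gene had a higher and 4 had a lower probe. The first 2 comparisons share the ES cells as their control.

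**Figure D1:**
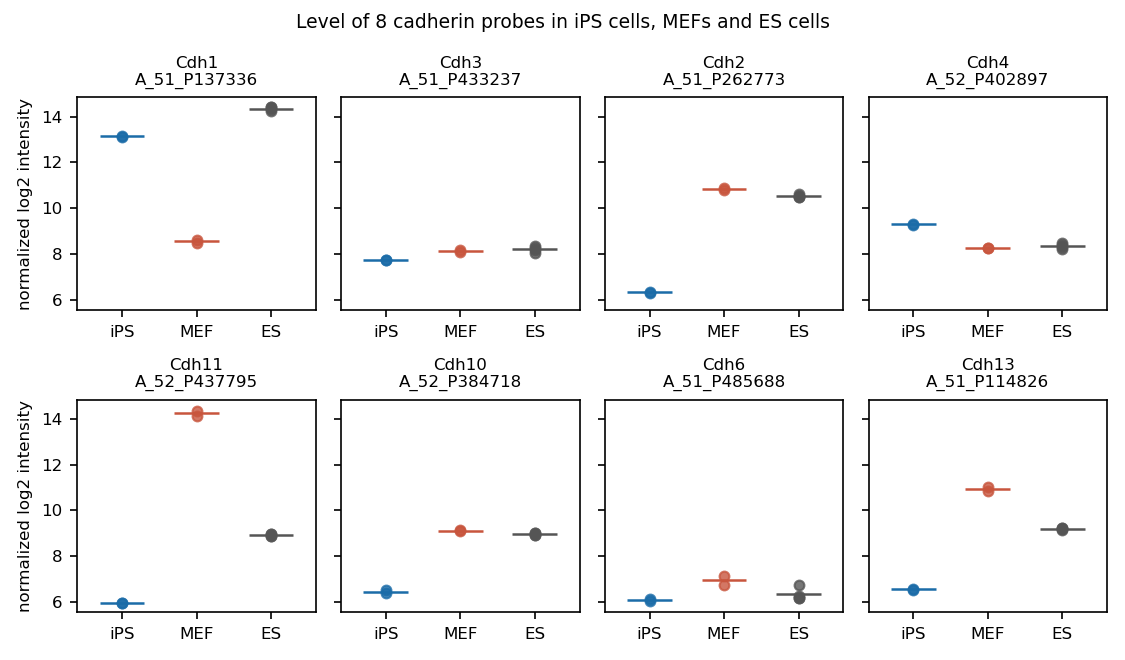
Normalized log2 intensity of 1 probe of each of the 8 genes in iPS cells (2 arrays), MEFs (2 arrays) and ES cells (green channel of 4 arrays), with points for arrays and lines for means. Cdh1 is at 13.16 and 13.11 in iPS cells, 8.48 and 8.61 in MEFs and 14.27 to 14.42 in ES cells; levels are compared within a panel, not between probes.

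Cdh1 was read by 1 probe printed 10 times, A_51_P137336, at chromosome 8, 109559041 to 109559100 on the mm8 build. Its normalized log2 intensity was 13.16 and 13.11 in the 2 iPS samples, 8.48 and 8.61 in the 2 MEF samples, and 14.32, 14.27, 14.41 and 14.42 in the ES channel of the 4 arrays. The 3 RNAs did not overlap: ES cells were highest, iPS cells next, and MEFs far below both. The log2 ratio over ES cells was -1.25 and -1.31 on the iPS arrays and -5.84 and -5.66 on the MEF arrays. Within an array the 10 spots agreed closely, with a standard deviation of 0.043 to 0.050 on the log2 scale. The lowest, median and highest spot were -1.31, -1.23 and -1.20 on the first iPS array and -5.93, -5.82 and -5.77 on the first MEF array.

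In the fit, Cdh1 was lower in iPS cells than in ES cells by 2.43-fold (log2 ratio -1.28 ± 0.059, limma adjusted p = 8.83e-07). It was lower in MEFs than in ES cells by 53.7-fold (-5.75 ± 0.059, adjusted p = 3.74e-09), the 5th lowest ratio among all tested probes. In iPS cells it was higher than in MEFs (4.47 ± 0.083, adjusted p = 1.27e-08), the 121st highest ratio of all tested probes. With median centring in place of loess, the iPS over ES ratio was -0.68 and no longer reached 2-fold. With the background model fitted on all spots, the Cdh1 calls were lost. The ratios were then -1.28 for iPS over ES (adjusted p = 0.298), -4.21 for MEFs over ES (0.209) and 2.93 for iPS over MEFs (0.172).

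Epithelial markers moved with Cdh1 in part. In iPS cells 9 of the 10 tested epithelial markers were lower than in ES cells, against 11.8% of all tested genes lower in that comparison. Keratin 18 was at -4.61, keratin 19 at -4.75 and Epcam, an epithelial adhesion protein, at -1.43. Their summed linear intensity was 23200 to 24800 in iPS cells, 22800 to 23700 in MEFs and 421000 to 452000 in ES cells. In iPS cells over MEFs 3 of the 10 were higher and 2 lower, against a background of 17% higher and 18.8% lower. The higher were Epcam at 3.22, Ocln at 1.53 and Cldn7 at 1.28, and the lower were keratin 19 at -2.30 and Dsp at -1.08. In the summed level, where bright probes weigh most, the iPS cells lay near the MEFs, whereas in Cdh1 they lay nearer to the ES cells. The part of these markers in the Cdh1 difference between iPS and ES cells was not tested, and in bulk RNA fewer cells of a type and less RNA per cell cannot be told apart.

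Cdh3 (P-cadherin), the neighbour of Cdh1 on chromosome 8, was read by probe A_51_P433237, which lies 114258 bases from the Cdh1 probe on mm8. Its log2 level was 7.74 and 7.71 in iPS cells, 8.16 and 8.07 in MEFs, and 8.06 to 8.36 in ES cells. The iPS samples were below all others, and MEFs and ES cells overlapped. The iPS cells had a log2 ratio of -0.58 ± 0.051 over ES cells (adjusted p = 2.88e-05) and -0.59 ± 0.072 over MEFs (adjusted p = 0.000181), both under 2-fold and not called. MEFs over ES cells gave 0.00 ± 0.051 (adjusted p = 0.951). The 53.7-fold difference of Cdh1 in MEFs thus stood beside a 1.00-fold value for Cdh3.

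Cdh2 was read above background by 1 of its 3 probes, A_51_P262773 on chromosome 18. Its log2 level was 6.32 and 6.30 in iPS cells, 10.87 and 10.81 in MEFs, and 10.49 to 10.61 in the 4 ES channels. The iPS samples stood far below, and the MEFs were slightly above every ES channel. The iPS levels were near the lowest signals well above background on those arrays, 6.173 and 6.055. Cdh2 was lower in iPS cells than in ES cells by 18.9-fold (-4.24 ± 0.056, adjusted p = 5.77e-09), the 47th lowest ratio of all tested probes. It was lower in iPS cells than in MEFs by 23.6-fold (-4.56 ± 0.079, adjusted p = 1.01e-08). MEFs over ES cells gave 0.32 ± 0.056 (adjusted p = 0.00114), or 1.25-fold, which was not called. These iPS calls were also made with the background model fitted on all spots. Across the processing settings run, the iPS over ES ratio ranged from -6.16 to -4.06. The other 2 Cdh2 probes, A_52_P164578 and A_52_P322725 of cDNA clones, were between 5.90 and 6.15 in every RNA and not well above background.

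**Figure D2:**
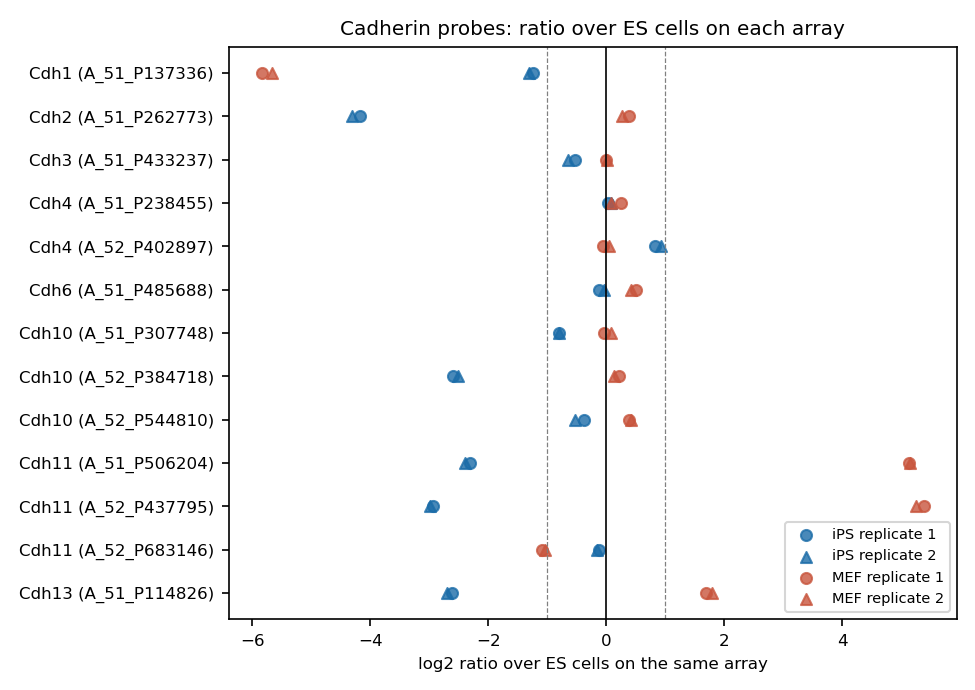
Log2 ratio over the ES cells on the same array for the 13 tested cadherin probes, with iPS replicates in blue and MEF replicates in red, a line at 0 and dashed lines at 2-fold. Replicates lie close together for every probe, Cdh1 is far to the left in MEFs, and Cdh2 is far to the left in iPS cells.

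Cdh4 (R-cadherin), first described in the retina, had 3 probes. A_52_P402897, of a brain cDNA clone, gave 9.28 and 9.30 in iPS cells, 8.27 and 8.28 in MEFs and 8.23 to 8.46 in ES cells. The iPS samples lay above all others, and MEFs lay within the range of ES cells. Its log2 ratio was 0.87 ± 0.054 in iPS cells over ES cells (adjusted p = 4.18e-06) and 0.87 ± 0.076 in iPS cells over MEFs (adjusted p = 2.53e-05), 1.83-fold each and not called. With median centring iPS over ES reached 1.06, past 2-fold. A_51_P238455 gave 0.06 ± 0.056 in iPS cells and 0.17 ± 0.056 in MEFs, each over ES cells, neither of them called. It was well above background on 1 of the 2 iPS arrays, both MEF arrays and 1 of the 4 ES channels. The third, A_52_P181943, was well above background on 1 iPS array and 1 MEF array and was not tested.

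Cdh6 (K-cadherin), known from the developing kidney and neural crest, had 1 probe, A_51_P485688. Its log2 level was 6.04 and 6.14 in iPS cells, 6.76 and 7.15 in MEFs, and 6.25, 6.73, 6.17 and 6.18 in the ES channels. It was well above background on 0 iPS arrays, both MEF arrays and 1 of the 4 ES channels. The fitted ratio of iPS cells over MEFs was -0.55 ± 0.072 (adjusted p = 0.000264), which was not called. Across 16 processing settings it ranged from -2.62 to -0.30 and was called in 2. MEFs over ES cells gave 0.47 ± 0.051 (adjusted p = 8.91e-05), which was not called, and 1.61 with the ratio made by the scanner software. The MEF over ES ratio was called in 1 of the 16 settings.

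Cdh10, a type II cadherin of the nervous system, had 7 probes, of which 3 were tested. A_52_P1196439, A_52_P129547 and A_52_P980199 were not well above background in any of the RNAs, and A_51_P401761 only in 1 ES channel. A pair of the tested probes lies 163 bases apart on chromosome 15, and only the second of them was well above background in iPS cells. They are printed because they carry the Cdh10 values, from the array files and on the plus strand of mm8.
A_51_P307748, chr15:18958086-18958148: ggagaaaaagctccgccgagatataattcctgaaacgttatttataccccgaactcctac
A_52_P384718, chr15:18958312-18958371: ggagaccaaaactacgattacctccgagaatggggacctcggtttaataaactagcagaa

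A_52_P384718 gave 6.39 and 6.51 in iPS cells, 9.14 and 9.08 in MEFs, and 8.92 to 9.01 in ES cells. The iPS samples were far below the other RNAs and near the lowest signals well above background on their arrays, 6.173 and 6.055. Across the processing settings run, the iPS over ES ratio ranged from -3.92 to -2.40. Cdh10 by this probe was lower in iPS cells than in ES cells by 5.87-fold (-2.55 ± 0.052, adjusted p = 1.90e-08) and lower than in MEFs by 6.65-fold (-2.73 ± 0.073, adjusted p = 5.50e-08). MEFs over ES cells gave 0.18 ± 0.052 (adjusted p = 0.0136), which was not called. A_51_P307748 was not well above background in iPS cells, where it read 6.17 and 6.22, against 6.96 and 6.97 in MEFs and 6.89 to 7.02 in ES cells. It was at least 1.71-fold lower in iPS cells than in ES cells (fitted ratio -0.80 ± 0.051, adjusted p = 5.31e-06, not called). A_52_P544810, of a cDNA clone and 193557 bases away, was at least 1.28-fold lower (fitted ratio -0.45 ± 0.054, adjusted p = 0.000161, not called). With the ratio made by the scanner software, which adds no offset, these last 2 probes stood at -2.86 and -3.09 in iPS cells, relative to ES cells, and were called.

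Cdh11 had 3 tested probes, 2 of which lie 363 bases apart at the downstream end of the gene as the minus strand reads it. The third, A_52_P683146, lies 33950 bases upstream of the nearer one. The upstream probe is printed next to the untested Cdh4 probe because both hold the same stretch. The capitals mark the longest run that the 2 probes share, 10 bases; runs of this kind encode residues of the calcium-binding sites between cadherin repeats. The Cdh11 probe is on the minus strand of mm8 and the Cdh4 probe on the plus strand.
A_52_P683146 of Cdh11, chr8:105557135-105557194: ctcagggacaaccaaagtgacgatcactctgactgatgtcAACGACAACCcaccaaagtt
A_52_P181943 of Cdh4, chr2:179776668-179776727: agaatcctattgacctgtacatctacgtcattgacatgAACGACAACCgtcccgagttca

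The downstream probe A_52_P437795 gave log2 levels of 5.97 and 5.96 in iPS cells, 14.34 and 14.14 in MEFs, and 8.96, 8.89, 8.90 and 8.95 in ES cells. The downstream probe A_51_P506204 gave 5.85 and 5.75 in iPS cells, 13.25 in both MEF samples, and 8.10 to 8.15 in ES cells. Both read MEFs as highest, ES cells in between and iPS cells as lowest, and neither was well above background on an iPS array. By A_52_P437795, Cdh11 was at least 7.02-fold lower in iPS cells than in ES cells (adjusted p = 1.23e-08) and at least 280-fold lower than in MEFs (adjusted p = 3.88e-09). By A_51_P506204, the bounds were at least 4.04-fold (adjusted p = 2.11e-08) and at least 141-fold (adjusted p = 3.88e-09). In MEFs over ES cells the ratios were 5.32 ± 0.053 (39.9-fold) and 5.14 ± 0.049 (35.2-fold), each with an adjusted p of 3.74e-09. They were the 16th and the 22nd highest of all tested probes.

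The upstream Cdh11 probe read a different order. Its log2 level was 11.82 and 11.78 in iPS cells, 10.62 and 10.67 in MEFs, and 11.70, 11.71, 11.95 and 11.93 in ES cells. MEFs were lowest, and iPS cells lay within the range of ES cells. MEFs were lower than ES cells by 2.09-fold (-1.06 ± 0.047, adjusted p = 5.33e-07), or -0.66 with median centring, under 2-fold. The iPS cells gave -0.14 ± 0.047 over ES cells (adjusted p = 0.0261) and 0.92 ± 0.066 over MEFs (adjusted p = 8.89e-06), neither of them called. On the same array, the log2 ratio of A_52_P437795 minus that of the upstream probe was 6.46 and 6.29 with MEFs. Which transcripts each probe detects was not tested.

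**Figure D3:**
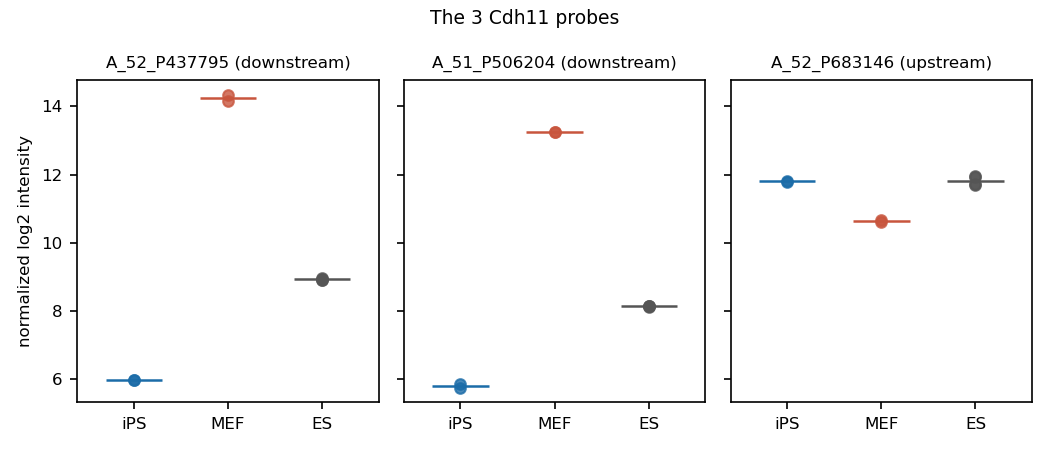
Normalized log2 intensity of the 3 Cdh11 probes in iPS cells (2 arrays), MEFs (2 arrays) and ES cells (4 channels), with points for arrays and lines for means. The 2 downstream probes are lowest in iPS cells and highest in MEFs, whereas the upstream probe is lowest in MEFs (10.62 and 10.67).

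Cdh13 was read by probe A_51_P114826, at chromosome 8, 122200046 to 122200105 on the plus strand of mm8. It is printed because it carried the Cdh13 result.
A_51_P114826: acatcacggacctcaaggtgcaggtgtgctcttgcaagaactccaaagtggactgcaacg

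Its log2 level was 6.56 and 6.53 in iPS cells, 10.84 and 11.01 in MEFs, and 9.16 to 9.23 in ES cells. The 3 RNAs did not overlap, in the same order as for the downstream Cdh11 probes. The iPS levels were near the lowest signals well above background on those arrays, 6.173 and 6.055. Across the processing settings run, the iPS over ES ratio ranged from -3.94 to -2.49. Cdh13 was lower in iPS cells than in ES cells by 6.29-fold (-2.65 ± 0.052, adjusted p = 1.70e-08) and lower than in MEFs by 20.9-fold (-4.39 ± 0.074, adjusted p = 9.16e-09). It was higher in MEFs than in ES cells by 3.32-fold (1.73 ± 0.052, adjusted p = 8.03e-08). A second probe, A_52_P504883 of a cDNA clone, was not tested. With the background model fitted on all spots, several Cdh11 and Cdh13 calls were lost. In MEFs over ES cells the ratios were then 3.47 for A_52_P437795, 3.07 for A_51_P506204, -0.61 for the upstream Cdh11 probe and 0.97 for Cdh13, each at an adjusted p of 0.356. The downstream Cdh11 probes were then at -2.94 (adjusted p = 0.109) and -2.33 (0.210) for iPS over ES, and at -6.42 (0.0671) and -5.40 (0.116) for iPS over MEFs. Cdh13 was then at -3.61 (adjusted p = 0.0503) for iPS over MEFs.

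Fibroblast markers moved with Cdh2, Cdh13, the downstream Cdh11 probes and the Cdh10 probe A_52_P384718 between iPS and ES cells. The upstream Cdh11 probe was not called there. In MEFs over ES cells all 11 tested fibroblast markers were higher, where 13.8% of all tested genes were. Cdh13 and the downstream Cdh11 probes were also higher in that comparison. Cdh2 (0.32) and A_52_P384718 (0.18) were not called in it, and the upstream Cdh11 probe was lower. Of the 11 tested fibroblast markers 9 were lower in iPS cells than in ES cells and 2 were not called. The background was 11.8% of all tested genes lower. Col1a1, a chain of type I collagen, was at -5.77, with its other probes between -2.98 and -0.49. Their summed linear intensity was 2420 to 2450 in iPS cells, 532000 to 545000 in MEFs and 23300 to 34000 in ES cells. Col3a1, Postn, Lox and Twist2 were not well above background in iPS cells, and all 12 markers of the list on the array were well above it in ES cells and in MEFs. The part of these markers in the cadherin differences was not tested.

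**Figure D4:**
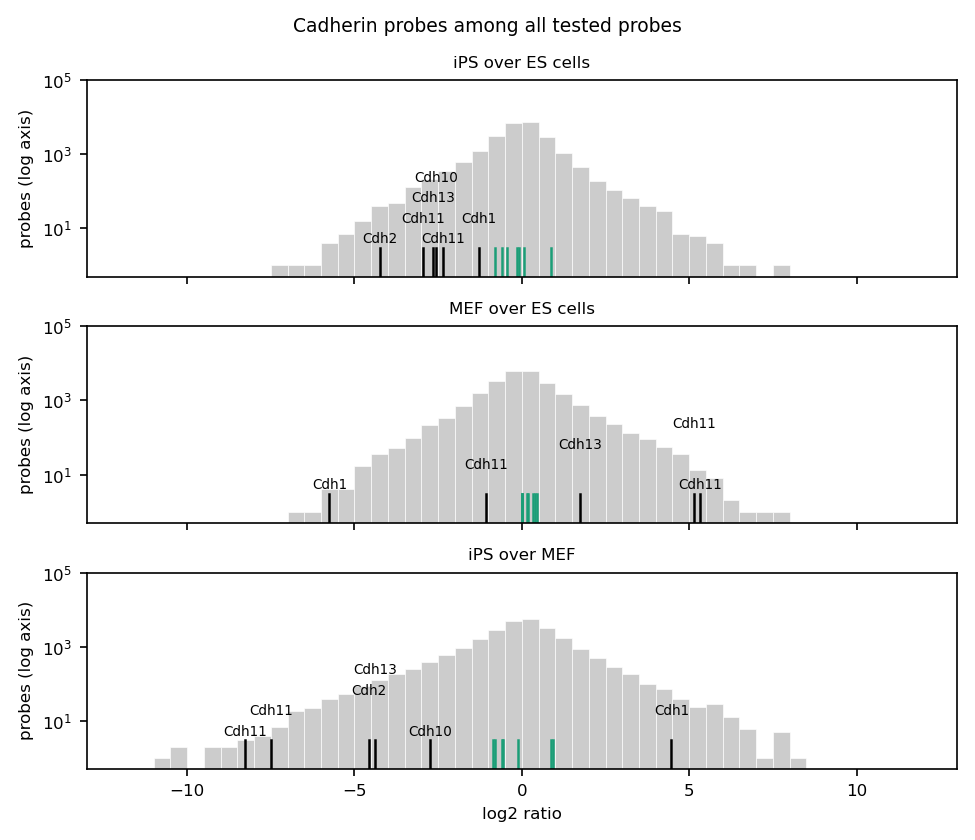
Number of all 24874 tested probes by log2 ratio (grey bars of 0.5, log axis) in iPS over ES cells, MEFs over ES cells and iPS cells over MEFs, with vertical marks for the 13 cadherin probes (black where called, and named; green where not). The downstream Cdh11 probes lie on the opposite side from Cdh1 in both comparisons with MEFs.

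The genes whose 4 ratios lay nearest to those of each tested probe were found among 17612 other genes by Euclidean distance over the 4 arrays. Those of Cdh4, Cdh6, the Cdh11 probe A_51_P506204 and the dimmer Cdh10 probes are left out here. Nearest to Cdh1 were Hook1 (distance 1.32), the pluripotency marker Zfp42 (1.44) and H2-Bl (1.48). Nearest to Cdh2 were Zeb2 (0.25), a repressor of Cdh1, with log2 ratios of -4.14 in iPS cells and 0.45 in MEFs over ES cells, Flnc (0.34), an actin-binding filamin, and Egfr (0.36), the receptor of epidermal growth factor. Nearest to the downstream Cdh11 probe A_52_P437795 were Ccdc80 (0.28), the collagen gene Col3a1 (0.56) and Ptn (1.23). The upstream Cdh11 probe, the brightest of the gene, had other neighbours: Primpol (0.05), H4f16 (0.06) and Lamp3 (0.08). Nearest to the Cdh10 probe A_52_P384718 were Colec12 (0.13), Zfp768 (0.19) and Clcn5 (0.20). Nearest to Cdh13 were Cdk14 (0.14), Mogat2 (0.23) and Cald1 (0.29). Nearest to Cdh3 were Rilp (0.06), Tbc1d17 (0.08) and Ctnnd1 (0.10), which encodes p120-catenin. The Ctnnd1 probe used was at -0.58 in iPS cells over ES cells, and another Ctnnd1 probe gave -0.08. Close values are common where ratios are near 0, as for Cdh3, Cdh4 and Cdh6.

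The catenins and other junction partners bind or stabilize cadherins at the membrane. Of 22 listed partners 20 were tested. Over ES cells, 3 were higher, 4 lower and 13 not called in iPS cells (median -0.24, all genes 0.01), where 20.9% of all tested genes were called. Vcl, which encodes the actin linker vinculin, was lower (-2.43 ± 0.050, adjusted p = 2.10e-08). Ctnnal1 (1.67 ± 0.048, adjusted p = 8.42e-08), Nectin1 (1.35 ± 0.048, adjusted p = 2.50e-07) and Ctnnd2 (-1.22 ± 0.061, adjusted p = 1.44e-06) were the next largest changes, and another Ctnnd2 probe gave -0.43.

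In MEFs over ES cells 3 partners were higher, 4 lower and 13 not called (median -0.11, all genes -0.01), where 27.4% of all tested genes were called. Ctnna2, the neural alpha-catenin, was higher (2.53 ± 0.089, adjusted p = 1.68e-07), although its other probe stood at -0.08. Lima1, an actin-binding protein, was higher (2.45 ± 0.051, adjusted p = 1.64e-08). Plekha7 (-2.40 ± 0.053, adjusted p = 2.04e-08), a component of the epithelial junction belt, and Pkp4 (-1.75 ± 0.051, adjusted p = 6.94e-08) were lower, though another Plekha7 probe gave -0.27. The iPS cells had 4 partners higher than MEFs, 7 lower and 9 not called (median -0.05, all genes 0.03), where 35.8% of all tested genes were called (17% higher, 18.8% lower). Ctnna2 was lower (adjusted p = 2.42e-07) and not well above background in iPS cells. Vcl stood at -2.93 ± 0.071 (adjusted p = 3.53e-08), Plekha7 at 2.80 ± 0.075 (adjusted p = 5.43e-08; 0.67 by its other probe) and Ctnnal1 at 2.18 ± 0.067 (adjusted p = 1.04e-07). Ctnnb1, which encodes beta-catenin and was picked out after its values were seen, stood at 0.09 ± 0.052 (iPS over ES), -0.04 ± 0.052 (MEFs over ES) and 0.13 ± 0.073 (iPS over MEFs) and was not called.

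Among the regulators of Cdh1, 14 of 16 were tested, and Twist1 and Zeb1 were not. Relative to ES cells, 1 was higher, 6 lower and 7 not called in iPS cells (median -0.68, all genes 0.01), against a background of 9.08% higher and 11.8% lower. Zeb2 was lower (-4.14 ± 0.050, adjusted p = 5.07e-09), with its other probes between -2.45 and -1.54. The repressor Twist2 was at least 10.1-fold lower (adjusted p = 1.47e-08) and not well above background in iPS cells. Cdx2, a homeobox factor, was at -3.33 ± 0.075 (adjusted p = 2.92e-08) and Grhl2, an activator of epithelial genes, at -1.54 ± 0.051 (adjusted p = 1.70e-07), though another Grhl2 probe gave -0.38.

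In MEFs over ES cells 4 regulators were higher, 4 lower and 6 not called (median -0.16, all genes -0.01), against a background of 13.8% higher and 13.6% lower. Foxc2 (4.76 ± 0.058, adjusted p = 3.74e-09), Snai2 (4.48 ± 0.051, adjusted p = 3.74e-09), which encodes the repressor Slug, and Twist2 (3.11 ± 0.064, adjusted p = 1.48e-08) were higher. Grhl2 was at least 18.5-fold lower in MEFs (adjusted p = 3.74e-09), by the brighter of its 2 probes, and Cdx2 at least 11.8-fold lower (adjusted p = 1.60e-08). Snai1, which encodes the repressor Snail, and Klf8 were outside the 4 largest changes. Over ES cells, Snai1 was at -1.50 ± 0.058 in iPS cells (adjusted p = 3.79e-07) and 1.42 ± 0.058 in MEFs (adjusted p = 3.63e-07). Klf8 went the other way, at 1.26 ± 0.059 in iPS cells (adjusted p = 9.96e-07) and -1.58 ± 0.059 in MEFs (adjusted p = 2.29e-07). Another Klf8 probe gave 0.19 in iPS cells and 0.02 in MEFs. Relative to MEFs, iPS cells had 2 regulators higher, 6 lower and 6 not called (median 0.10, all genes 0.03), against a background of 17% higher and 18.8% lower. Twist2 was at least 84.2-fold lower (adjusted p = 5.52e-09), Snai2 stood at -5.02 ± 0.072 (adjusted p = 5.93e-09), Foxc2 at -4.94 ± 0.082 (adjusted p = 8.69e-09) and Zeb2 at -4.59 ± 0.071 (adjusted p = 7.56e-09).

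**Figure D5:**
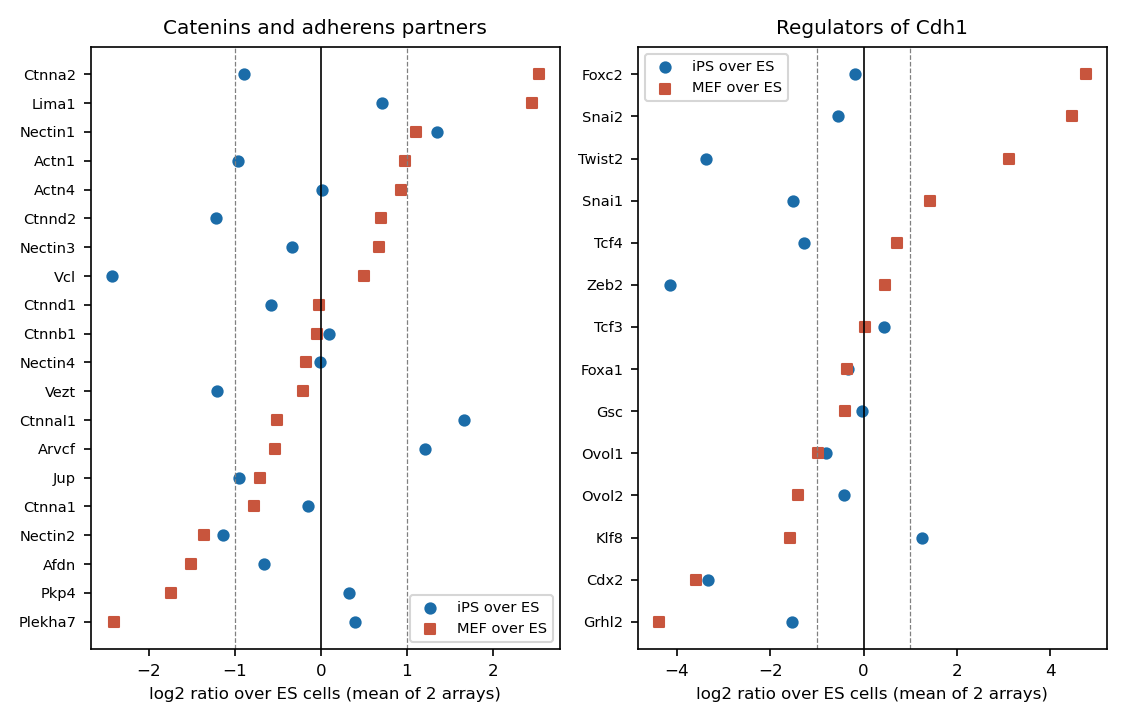
Log2 ratio over ES cells (mean of 2 arrays) of the 20 tested catenins and junction partners and the 14 tested regulators of Cdh1, each by its brightest probe, with iPS cells as blue circles, MEFs as red squares, and dashed lines at 2-fold. Foxc2, Snai2 and Twist2 are to the right in MEFs, and Zeb2 and Twist2 are to the left in iPS cells.

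Genes for cadherin shedding and turnover were tested for 21 of 22. Relative to MEFs, 2 were higher and 11 lower in iPS cells (median -1.04, all genes 0.03), where 17% of all tested genes were higher and 18.8% lower. Mmp14, a membrane-bound metalloproteinase, was at -4.71 ± 0.067 (adjusted p = 5.93e-09) and Egfr at -4.44 ± 0.069 (adjusted p = 7.60e-09). The metalloproteinase gene Mmp3 was lower (adjusted p = 3.16e-08) and not well above background in iPS cells. Rab11fip1, of endosome recycling, was at 3.11 ± 0.077 (adjusted p = 3.82e-08). Against ES cells, 3 were higher and 4 lower in iPS cells (20.9% of all tested genes called), and 8 were higher and 2 lower in MEFs (27.4% called). The iPS cells had Egfr at -4.02, Mmp14 at -2.63, the convertase gene Pcsk6 at 2.06 and the convertase gene Furin at -1.31 over ES cells. The MEFs had Mmp3 at least 18.6-fold higher, the sheddase genes Adam15 at 2.25 and Adam9 at 2.20, and Rab11fip1 at -2.09. Of the 15 other cadherin genes of the list, 4 were tested. Cdh15 (M-cadherin), known from muscle, exceeded its ES level in iPS cells (1.36 ± 0.066, adjusted p = 1.15e-06) and in MEFs (1.65 ± 0.066, adjusted p = 3.14e-07). Cdh20 was lower in iPS cells than in MEFs (-1.87 ± 0.082, adjusted p = 5.77e-07), whereas its other probe gave 0.82.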

How the data were processed

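Per the file headers, the authors read the arrays with Agilent Feature Extraction 10.5.1.1. The deposited files hold each spot's mean intensity and local background intensity, not normalized, and a log10 ratio of red over green, and the series' value sheet was identical to it. Probe positions are those of the array annotation on mm8. Intensities were corrected with normexp (offset 50) fitted on spots the scanner software had not marked as outliers, then loess-normalized array by array (span 0.3) in limma 3.58.1 (R 4.3.3; text was parsed by the package data.table, release 1.17.8). Control and marked spots were left out and spots of a probe averaged. At least 1 RNA gave a signal well above background for 27725 of 41174 gene probes, and the 24874 with values on every array were tested. Fitted on all spots, normexp lost most calls with MEFs, and leaving 14 marked spots with a local background above 500 on the first MEF array out of that fit restored counts near the main ones. Both fits had been seen when the first was taken.

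The model held 1 coefficient for each group across the 4 arrays, with eBayes (2 residual, 4.91 prior degrees of freedom). ES cells were the green channel of every array, so dye and ES cells cannot be told apart in ratios over ES cells. All arrays were on 1 slide, and precision is limited by the number of arrays. A dim group has a bound, against the lowest signal well above background on its arrays, and no fold is given where the bound exceeded the fitted ratio. Bounds set the channels against each other after Aquantile scaling and are open to dye bias. Same-numbered arrays did not deviate together (correlation -0.11).

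The members and gene lists were chosen with earlier results of these data known. All probes of the members are named, with up to 4 called genes of largest change per list and comparison (fewer for marker lists). Snai1, Klf8, Ctnnb1 and Pou5f1 were named outside this rule. The 3 nearest genes are given for part of the tested probes. A gene named in 1 comparison may have values for another. A gene with several probes is represented by its brightest in lists. The array names Sip1 and Tcf3 belong by accession to Gemin2 and Tcf7l1 and were not taken for Zeb2 or Tcf3. The fit was tested on simulated data. Alternatives were other background fits, other scalings, other filters, a replicate block and arrays left out.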

Additional observations from a re-analysis of the deposited data

Results flagged for a closer look

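The ES channels of the Cdh6 probe A_51_P485688 held 1 value apart from the others. On the array of MEF replicate 2 its log2 level was 6.73, against 6.25, 6.17 and 6.18 on the other 3 arrays. The gap to the nearest value was 0.853 of the whole range, above Dixon's 95% critical value for 4 values. Chance gives such a gap in about 1 in 20 groups, and 13 probes were examined.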

How the results depend on the processing

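The main counts of called probes were 4652 (iPS over ES), 6269 (MEFs over ES) and 8234 (iPS over MEFs), and 6, 5 and 6 among the cadherins. With normexp fitted on all spots there were 0 for MEFs over ES (926 at an unadjusted limma p under 0.05 with 2-fold) and 2644 for iPS over MEFs, and the cadherins gave 3, 0 and 2 (4, 2 and 5 unadjusted). With marked spots kept there were 200 and 3086, and the cadherins gave 3, 0 and 3. With all spots but the 14 on the first MEF array with a local background above 500, chosen after seeing the data, there were 4638, 6191 and 8159, and 6, 5 and 6 cadherins. The ratio of the scanner software gave 8405, 10354 and 12486, with 11 cadherins in iPS cells over MEFs. A normexp offset of 0, chosen after seeing the data, gave 6999 in iPS cells over ES cells and 10 cadherins in iPS cells over MEFs. The stricter filter tested 7 cadherin probes and called 3 in MEFs over ES cells. Median centring moved the median of all probes to 0.14 in iPS cells and 0.16 in MEFs over ES cells. It changed the split to 3225 higher and 2022 lower (main 1989 and 2663) in iPS cells and 4716 and 2022 (main 3174 and 3095) in MEFs. Leaving out each array gave 4713 to 4828, 6370 to 6582 and 8397 to 8517 calls, and 6, 5 and 6 cadherins each time. With the replicate number as a block the counts were 4652, 6269 and 8235, and 6, 5 and 6 cadherins; the crossed pairing, added after seeing the data, gave the same counts. No called cadherin ratio changed sign in the alternatives run. The cause of the other shifts was not tested, other than by the construction of each setting.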
